A study of Mus musculus with 140 samples.

Results

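The cytosolic ribosomal protein genes encode the protein part of the ribosomes that translate nuclear-encoded mRNA. They were taken as the protein-coding genes of the mouse GENCODE vM21 annotation whose symbol is Rpl or Rps followed by a number, or is Rpsa, Rplp0, Rplp1 or Rplp2, without the Rps6k kinases and Rps19bp1. The rule found 91 of 21951 protein-coding genes, 57 of the large subunit and 34 of the small subunit, and 6 of the 91 have a symbol with the pseudogene ending -ps. It used names only and no measured value. Rpl10l and Rps12-ps3 had no exonic cluster in any library.

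Each ribosomal protein is made in an amount matched to the others, and in neurons the mRNAs are found in axons and dendrites as well as in the cell body. Most of these transcripts are abundant and short, begin with a run of pyrimidines (the 5′ TOP element) that ties their translation to growth signalling, and have short untranslated regions (UTRs), and many of their introns carry small nucleolar RNAs (snoRNAs). TDP-43 is an RNA-binding protein with a preference for UG-rich RNA that is lost from the nucleus in several neurodegenerative diseases, and N6-methyladenosine (m6A) is an mRNA mark placed at DRACH motifs and best known from long exons and the region around the stop codon.

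Both were mapped by enhanced crosslinking and immunoprecipitation with sequencing (eCLIP), in which RNA fragments recovered with an antibody are compared with the size-matched input of the same tissue. Of the 140 samples, 70 immunoprecipitation (IP) libraries came with a cluster list and 70 were inputs. R6/2 mice on a B6CBA background carry a fragment of human HTT (exon 1) with an expanded CAG repeat from a transgene, under the human promoter, and were compared with non-transgenic (NT) mice at 3 months without treatment. Each of the 4 sets (TDP-43 or m6A, striatum or cortex) held 8 R6/2 and 8 NT libraries, from 4 males and 4 females per genotype. Wild-type C57Bl/6 males, labelled 2 months old, were dosed at 5 weeks with 500 µg of a TDP-43 antisense oligonucleotide (ASO), or with PBS, into the cerebral ventricle and collected 2 weeks later, and m6A was mapped in their cortex in 3 libraries per treatment. The treatment description names striatum for that experiment, and the sample labels, which were followed, name cortex. The tissues are bulk, so fewer cells of a type and less RNA per cell cannot be told apart. The methods give 4 R6/2 and 4 NT animals of each sex, and do not say which libraries of the 2 regions came from 1 animal. All 8 striatal markers had more clusters per exonic kb in striatum and all 6 cortical markers more in cortex, in both assays.

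A cluster is called listed here if it is in the authors' list, and enriched if IP exceeded input at a p of 0.001 or less. A cluster was assigned to a gene by its midpoint and strand, and density is the number of listed exonic clusters per kb of merged exon. The lists held between 133211 and 260739 clusters, of which 4929 to 99049 were enriched. Read depth was not used here. Several libraries stood apart. In TDP-43 striatum 5 of 8 R6/2 libraries (all 4 females and male 4) had 36.2% to 47.4% of their clusters in introns, against 16.1% to 25.7% in NT, and the fewest enriched clusters, 4929, were in an NT library of that set. In the ASO experiment 99.2% to 99.3% of intervals were identical between libraries of 1 treatment and 1.96% to 1.97% between treatments, so the libraries of a treatment share their intervals and differ only in the values. The annotation also holds 283 ribosomal protein pseudogenes, with which reads of these genes may be shared, and readthrough genes overlap Rpl13a, Rpl36al and Rps10. Counts for single ribosomal protein genes are uncertain to that extent.

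Examples of sites where enriched clusters recurred in most libraries are given as sequence. Below are 4 TDP-43 windows and 2 m6A windows of 29 bases, read 5′ to 3′ on the strand of the gene from GRCm38. Capitals mark TGTGT or GTGTG in TDP-43 windows and GGAC in m6A windows, searched on that strand alone. The windows shown hold these motifs more often than the recurring sites as a whole. Of the sites enriched in at least 8 of 32 libraries, 13 of 78 for TDP-43 and 10 of 36 for m6A had one within 25 bases. The Rps3 and Rpl4 windows are centred on the base covered by the most libraries, and the other 4 on the motif nearest to that base, within 25 bases of it, so the place of the motif in them was set by the choice of window.
Rps3 coding sequence, TDP-43, chr7:99479992-99480020 (-): aagggctgcgaggttgtggtgtctgggaa
Rpl4 coding sequence, TDP-43, chr9:64178350-64178378 (+): atgccaagaagcagaagcctgcagggaaa
Rpl8 coding sequence, TDP-43, chr15:76904308-76904336 (+): ccgccatgggccGTGTGatccgagggcag
Rpl13a noncoding exon, TDP-43, chr7:45128658-45128686 (-): gcgcgccgggcgGTGTGgggtcgggtggg
Rpl7l1 3′ UTR, m6A, chr17:46774138-46774166 (-): atttagaaagaaGGACtgctggcaagctt
Rpl15 3′ UTR, m6A, chr14:18268952-18268980 (-): ataaacaatttaGGACagtcatttctgct

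Rps3, a small-subunit protein at the mRNA entry channel, held the strongest of the TDP-43 sites enriched in all 32 libraries, with a median log2 IP over input of 6.09, in a 188-base exon. Rpl4, a large-subunit protein that reaches into the exit tunnel, had its window in a 444-base exon, 77 bases before the stop codon, with a median of 3.78 and enrichment in 32 of 32 libraries. The Rpl8 window, from a protein at the peptidyl transferase centre, was enriched in 31 of 32 libraries with a median of 4.13, and that of Rpl13a, also known from silencing of inflammatory mRNAs outside the ribosome, in 32 of 32 with a median of 4.30. Both m6A windows were enriched in all 32 R6/2 and NT libraries. Rpl7l1, a paralogue of Rpl7, had a median log2 IP over input of 2.07, and Rpl15, a large-subunit core protein, one of 1.10.

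The ribosomal protein transcripts were more densely covered by listed m6A clusters than other genes, but far fewer of these clusters were enriched over input, whereas in TDP-43 eCLIP the order was the opposite. This was not particular to them, since the 5′ TOP transcripts given with the related gene lists went the same way in m6A and in the TDP-43 share. Other genes here are those listed in at least 50% of the libraries of a set, between 12534 and 16295. In NT striatum m6A density had a median of 2.51 clusters per kb over 8 libraries for ribosomal protein genes and 1.79 for other genes, with a ratio from 1.31 to 1.43. The same ratio ran from 1.21 to 1.62 in NT cortex and was 1.66 in each of the 3 PBS libraries. All 38 m6A libraries had the higher density in ribosomal protein genes.

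In TDP-43 libraries the densities were closer. In NT striatum the medians were 1.58 and 1.71 clusters per kb, with a ratio from 0.841 to 0.960, and in NT cortex 1.66 and 1.94, with a ratio from 0.821 to 0.933. All 16 NT libraries thus had the lower density in ribosomal protein genes, as did the 8 R6/2 cortex libraries, whereas R6/2 striatum was mixed with a ratio from 0.914 to 1.11 and 6 of 8 libraries above 1. Counting only exons of basic protein-coding transcripts brought that last median from 1.03 to 0.865. The 50% filter was set on other genes alone. With it on ribosomal protein genes too, the ratio was above 1 in 1 of 8 NT striatum libraries (median 0.970) and 0 of 8 of NT cortex. With any overlap of cluster and exon it was above 1 in 2 of 8 NT striatum, 0 of 8 NT cortex and 2 of 8 R6/2 cortex libraries. Merged exons of the ribosomal protein genes had a median of 1719 bases and those of other genes 3508, and the reference transcripts 833 and 2548 bases.

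The share of listed exonic clusters that were enriched separated the assays. In m6A NT striatum it was 8.77% for ribosomal protein genes (7.11% to 10.8% over 8 libraries), against a median of 48.2% in other genes. NT cortex gave 7.85% (5.57% to 11.8%) against 44.7%, and the PBS libraries 10.5% (10.3% to 15.7%) against 40.5%. The share was lower in ribosomal protein genes in all 38 m6A libraries, and their median log2 IP over input lay below 0 in all 38, at -1.12 in NT striatum where other genes had 1.10.

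TDP-43 ran the other way. In NT striatum 20.3% of the clusters were enriched (6.44% to 25.1%), against 14.6% in other genes, and in NT cortex 34.6% (21.1% to 45.5%) against 26.6%. The share was higher in ribosomal protein genes in 14 of 16 striatum and 15 of 16 cortex libraries of both genotypes. Counted by genes, the groups were not on equal terms. The median percentage of genes with an enriched cluster was 24.2% of ribosomal protein genes and 26.7% of other genes in striatum. In cortex it was 34.6% and 37.1%. All 91 ribosomal protein genes were counted, but only those other genes that passed the filter on listing given above. Of the 91, 79 passed it in striatum and 81 in cortex. These percentages therefore do not show which group was higher by genes. The median log2 IP over input was 0.97 in NT striatum and 1.72 in NT cortex, against 0.75 and 1.31 in other genes. No test was made for these differences, since the genes of a group share their libraries.

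**Figure D1:**
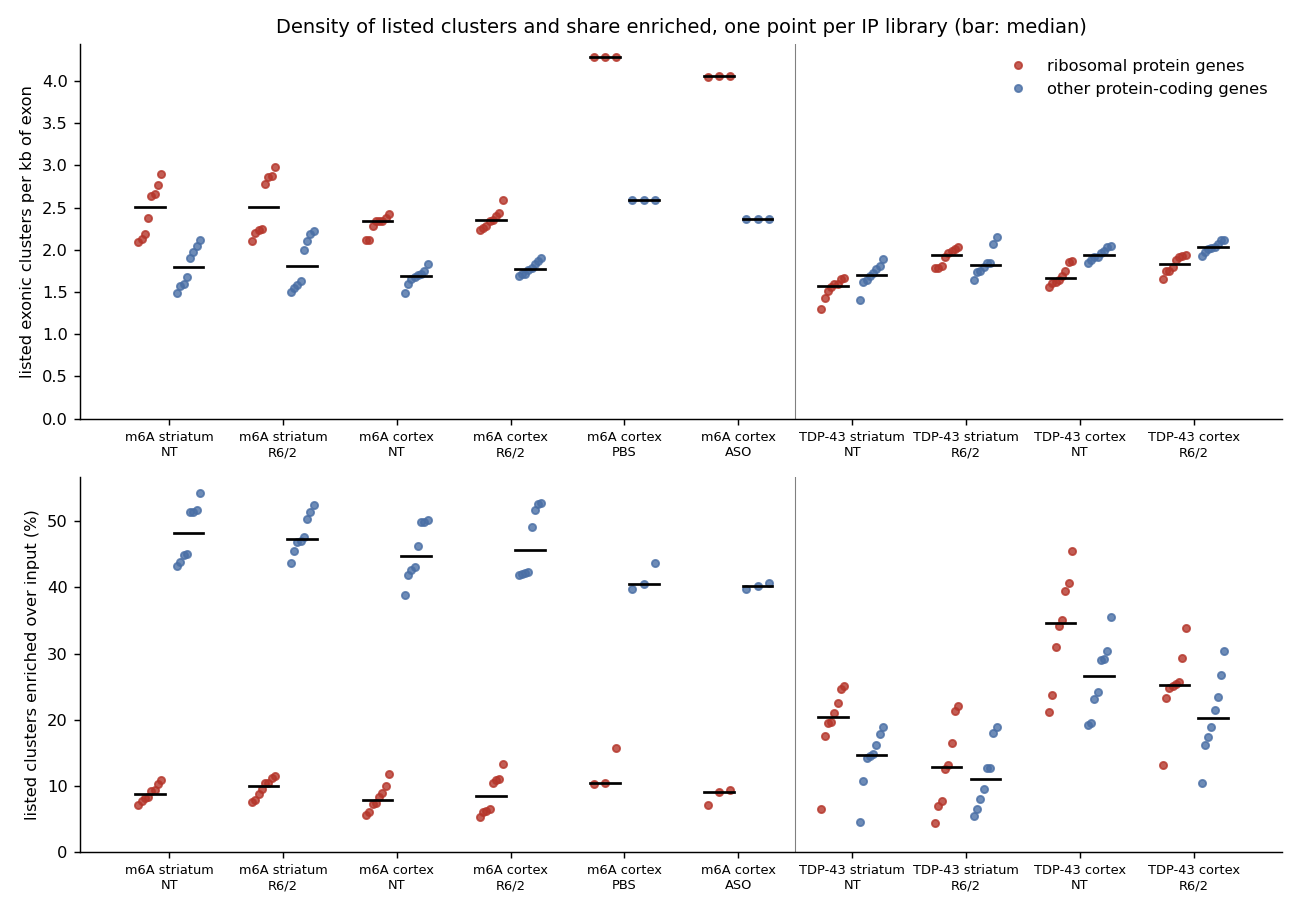
Listed exonic clusters per kb of exon (top) and the percentage of them that were enriched over input (bottom), each point 1 IP library and each bar a median, for ribosomal protein genes and other protein-coding genes by assay, region and genotype or treatment. In every m6A group ribosomal protein genes lie above other genes in density and far below them in the enriched share, and in TDP-43 the 2 gene groups lie close together.

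Among coding sequence and the UTRs, the contrast between the gene groups was largest in coding sequence in both assays. In NT cortex 1.67% of m6A clusters in coding sequence were enriched for ribosomal protein genes (0.457% to 3.43%) and 40.3% for other genes (35.3% to 45.0%), ranges far apart. In 3′ UTRs the shares were 19.3% and 50.4% and in 5′ UTRs 11.6% and 38.4%. TDP-43 gave 51.7% against 22.8% in coding sequence, with ranges of 35.5% to 61.4% and 15.4% to 31.2%, but 24.6% against 34.9% in 3′ UTRs and 23.0% against 31.8% in 5′ UTRs.

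The counts over libraries were as uneven. Coding sequence of ribosomal protein genes had the higher TDP-43 share in 16 of 16 libraries of each region, whereas their 5′ UTRs had the lower share in 16 of 16 and their 3′ UTRs in 16 of 16 striatum and 14 of 16 cortex libraries. In m6A the ribosomal protein genes were lower in all 38 libraries for coding sequence, 3′ UTRs and 5′ UTRs alike.

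Exon length was set beside this, because m6A is known to be sparse near splice junctions. Of 249 internal coding exons of ribosomal protein genes 95.6% had 200 bases or less, against 87.4% in other genes. In such short exons 0.697% of m6A clusters of NT cortex were enriched in ribosomal protein genes and 2.87% in other genes, while in longer internal exons the shares were 0% and 50.5%. The longer exons of ribosomal protein genes held only 8 to 14 listed clusters per library. The lower share in short exons was found in 4 of 6 libraries of the ASO experiment, 16 of 16 of striatum and 15 of 16 of cortex. In TDP-43 of NT cortex the short exons had 47.2% against 19.4% and the longer ones 55.8% against 29.8%.

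**Figure D2:**
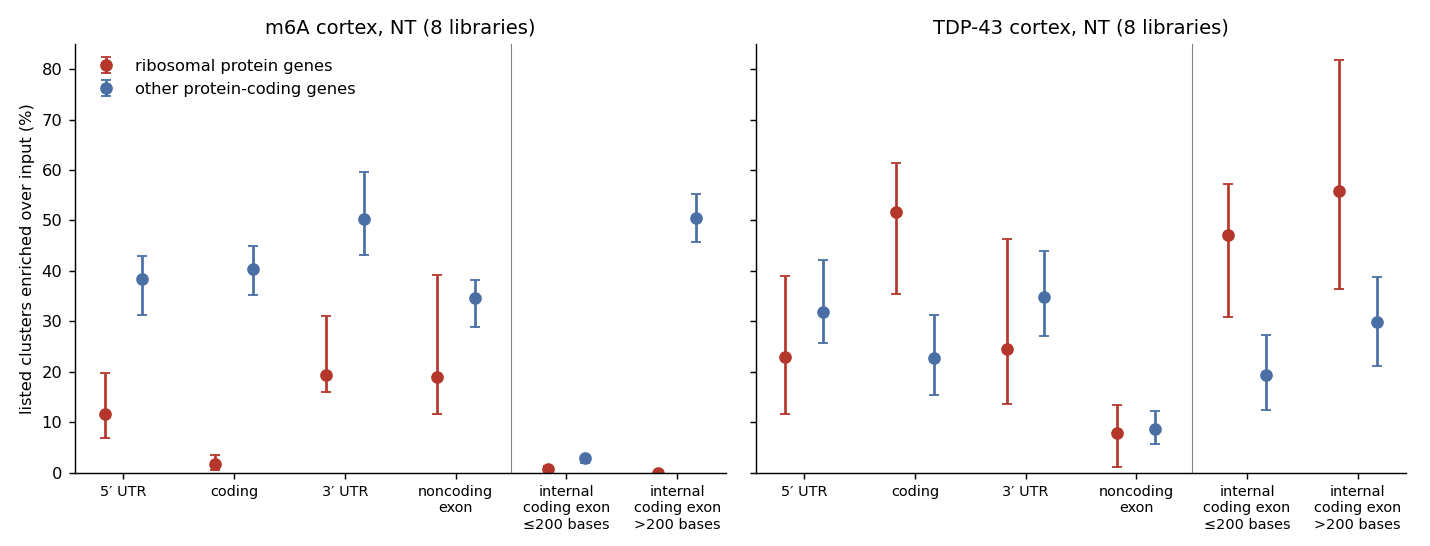
Percentage of listed clusters that were enriched over input in 8 NT cortex libraries of m6A (left) and TDP-43 (right), by location in the transcript and, right of the line, by length of internal coding exons. Points are medians and bars the range over libraries. In coding sequence ribosomal protein genes lie near 0 for m6A and above other genes for TDP-43.

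Distance along the transcript gave the same separation. In m6A of NT cortex the share for ribosomal protein genes was 16.8% within 50 bases of the transcript start, 9.86% from 50 to 100 bases and 3.87% from 200 to 400 bases. In the last 100 bases before the stop codon it was 2.53% against 49.4% in other genes, and in the first 100 bases after it 20.7% against 60.7%. From 100 to 200 bases past the stop codon a median of 5.5 clusters per library was left. TDP-43 was lowest in the 100 bases after the stop codon, with 12.5% in ribosomal protein genes from a median of 8 clusters, and was 54.8% in the 100 bases before it against 23.4% in other genes.

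**Figure D3:**
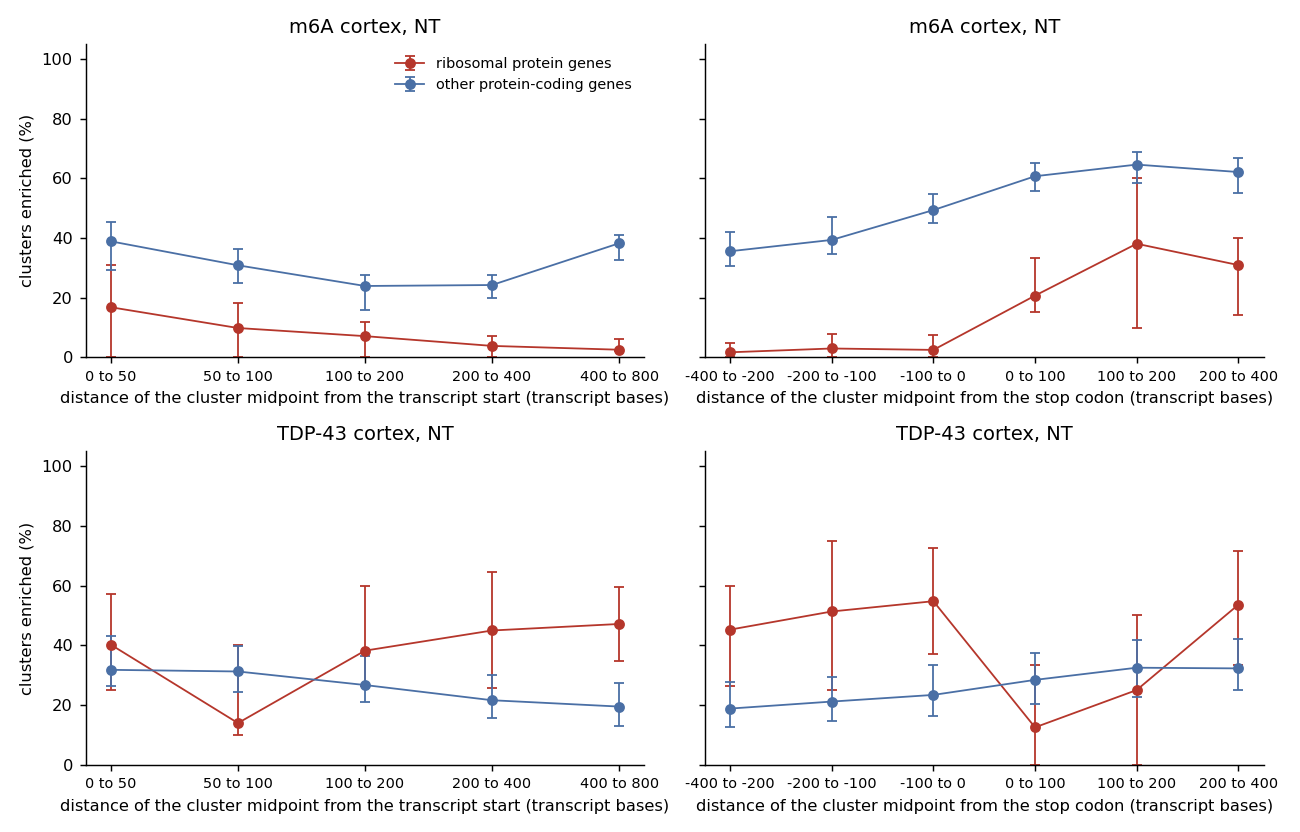
Percentage of listed clusters that were enriched over input in NT cortex, for m6A (top) and TDP-43 (bottom), by distance of the cluster midpoint from the transcript start (left) and the stop codon (right) in transcript bases. Points are medians and bars the range over 8 libraries. The m6A share of ribosomal protein genes falls to a few percent through the coding sequence and is higher after the stop codon.

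The motifs did not separate the groups as strongly. GGAC stood in 24.2% of 51-base windows around enriched m6A clusters of ribosomal protein genes in NT cortex (16.2% to 47.6%, a median of 33 clusters per library) and in 19.0% around clusters that were not enriched. In other genes the shares were 33.6% and 24.8%. TGTGT stood in 7.32% of windows around enriched TDP-43 clusters of these genes and in 8.96% around the rest, and in 7.19% around enriched clusters of other genes. GTGTG gave 7.44% and 7.75% in ribosomal protein genes and 9.07% around enriched clusters of other genes.

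Sites enriched in at least 8 of the 32 libraries of an assay numbered 82 for TDP-43, in 34 ribosomal protein genes, and 36 for m6A, in 22. Of the TDP-43 sites 56 lay in coding sequence, 11 in 3′ UTRs, 8 in 5′ UTRs, 6 in noncoding exons and 1 in an intron, and 13 of the 78 whose sequence was read had TGTGT or GTGTG in the 51-base window. Of the m6A sites 14 lay in 5′ UTRs, 8 in 3′ UTRs, 7 in noncoding exons, 5 in coding sequence and 2 in introns, and 10 of 36 had GGAC. Rpl13a and Rpl8 held the most TDP-43 sites, 8 each, followed by Rpl4 with 7 and Rps3 with 6. For m6A, Rps24, whose short last exons are alternatively spliced, held 5 and Rpl7l1 held 4.

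TDP-43 signal in the ribosomal protein genes was concentrated in a few of them. Rpl8 (ENSMUSG00000003970, chr15:76904078-76906314) had the highest density in both regions, with a median of 6.99 listed clusters per kb in NT striatum and 8.46 in NT cortex. In NT cortex it had 10 to 13 listed clusters, all of them enriched, and a gene-level log2 IP over input from 3.59 to 4.94. In NT striatum 1 to 11 of its clusters were enriched, with a median of 8.5 and a log2 IP over input from 2.67 to 4.50.

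Rpl13a and Rpl4 followed. Rpl13a (ENSMUSG00000074129, chr7:45125558-45128761) had 13 to 15 listed clusters in NT cortex, 11 to 13 of them enriched, and Rpl4 (ENSMUSG00000032399, chr9:64173375-64178666) had 11 to 15, of which 9 to 13 were enriched. In NT striatum their densities were 5.68 and 5.23 per kb. The next densities in NT cortex were those of Rps15, a small-subunit protein near the decoding site, with 5.56 per kb and 2 to 4 enriched clusters, and of Rpl38, known for selective translation of Hox mRNAs, with 5.54.

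Density and enrichment did not always go together. Rpl32, a large-subunit surface protein, was among the 5 densest genes in NT striatum with 4.15 per kb, but its median log2 IP over input was 0.06 and its median number of enriched clusters 0. At the low end 8 members had no listed cluster in NT striatum and 6 none in NT cortex, and others, such as Rpl36 in both regions, had 0 to 1 per library with a median of 0. Of all members, 6 were enriched in every NT striatum library (Rpl13a, Rpl4, Rpl8, Rps12, Rps14 and Rps3) and 20 in every NT cortex library, whereas 55 and 39 were enriched in no NT library.

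In m6A the densest genes were not the enriched ones. Rps21, a small-subunit protein, was the densest in NT striatum with 12.3 listed clusters per kb (6 to 12 clusters) and a log2 IP over input from -2.12 to -1.03. Rpl13a had 18 to 29 listed clusters there, of which 1 to 3 were enriched, and Rps15 had a median of -1.24. Rps21 and Rps15 had no enriched m6A cluster in any of the 38 libraries. In NT cortex Rpl38, Rpl13a, Rps21, Rpl8 and Rps15 led with 9.23, 9.22, 8.02, 6.99 and 6.35 per kb, and their medians of log2 IP over input were all below 0.

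The highest densities of enriched m6A clusters belonged to other members. In NT striatum they were Rpl19 (3.91 per kb, a median log2 IP over input of 0.84), Rpl41, the smallest ribosomal protein (3.42 and 0.85), Rps27l (2.45 and 0.76) and Rpl24 (1.94 and 2.19). In NT cortex they were Rpl41 (5.14), Rpl24 (1.94), Rpl7l1 (1.29) and Rpl19 (0.978). Rpl41 had 2 to 6 enriched clusters in NT striatum and 0 to 8 in NT cortex. At the low end of listed clusters, 4 members had none in NT striatum and 5 none in NT cortex.

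The paralogues differed from each other. Rpl7l1 (ENSMUSG00000063888, chr17:46773907-46782672), which has an 1830-base last exon, had 3 to 8 enriched m6A clusters in each NT library of both regions and a median log2 IP over input of 1.07 in striatum and 0.93 in cortex. Rps27l, a paralogue induced by p53, had medians of 0.76 and 0.49, and Rpl36al, the paralogue of Rpl36a, was enriched in 8 of 8 libraries of each region. Rpl22l1, the paralogue of Rpl22, had no enriched m6A cluster and medians of -1.50 and -1.36, against TDP-43 medians of 1.21 and 2.21. Rpl39l and Rpl3l, the latter a muscle paralogue of Rpl3, had at most 1 listed cluster per library.

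Across members the share with a log2 IP over input above 0 was 72 of 83 (86.7%) for TDP-43 in NT striatum and 80 of 85 (94.1%) in NT cortex, below the 90.7% and 99.3% of other genes. For m6A it was 19 of 87 (21.8%) in NT striatum and 16 of 86 (18.6%) in NT cortex, against 77.2% and 75.2%. The m6A members above 0 came mostly from the large subunit, with 16 of 54 in striatum and 13 of 53 in cortex, against 3 of 33 small-subunit genes in each region.

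Both assays could be set side by side for 82 members in NT striatum and 83 in NT cortex. In striatum 59 were below 0 in m6A and above 0 in TDP-43, 12 were above 0 in both, 6 below 0 in both and 5 above 0 in m6A alone, and in cortex the numbers were 65, 13, 3 and 2. The gene-level log2 values correlated across these genes with r of -0.21 in striatum and -0.27 in cortex (Spearman rho -0.11 and -0.20), whereas the densities correlated with r of 0.73 and 0.79. Genes are not independent replicates, and the points share exon length and transcript abundance, so these values describe the genes. Rps3 was at one end, with 7 to 9 enriched TDP-43 clusters in each NT cortex library and none among 15 to 20 listed m6A clusters. Rpl13a, Rpl15, Rpl22 and Rps24 had an enriched cluster of both assays in every NT cortex library.

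**Figure D4:**
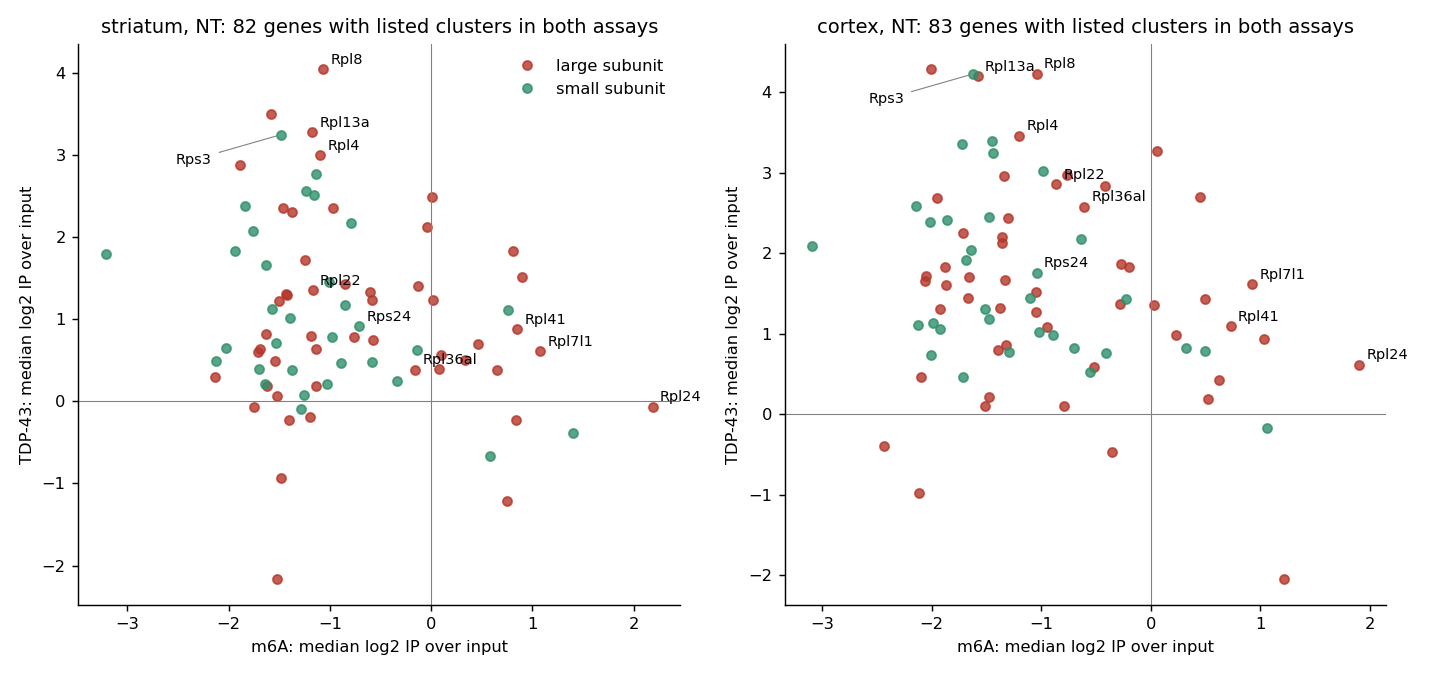
Median log2 IP over input of each ribosomal protein gene in m6A (horizontal) and TDP-43 (vertical) over the NT libraries of striatum (left) and cortex (right), coloured by ribosomal subunit. Most genes lie left of 0 for m6A and above 0 for TDP-43, with Rps3, Rpl8 and Rpl13a near the top left and Rpl7l1 right of 0.

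The R6/2 comparison asked whether TDP-43 binding or m6A of these transcripts differed from NT. In this and the later comparisons, all genes tested are annotated genes of any type that met the filter, noncoding ones included. In TDP-43 striatum, the set with the 5 libraries of high intronic share, 2 of 70 ribosomal protein genes passed the test on the number of listed clusters, beside 6.95% of all 12491 genes tested, and both were higher, beside 4.33%. Rpl18, a large-subunit surface protein, had 1 listed cluster in 5 NT libraries and 2 in the other 3 (median 1), and 2 to 6 in R6/2 (median 4). Rpl3, which lies at the peptidyl transferase centre, had 2 to 4 (median 3) and 4 to 7 (median 5.5). The groups touched at 2 clusters for Rpl18 and at 4 for Rpl3. On the normalized log2 scale the difference was 0.72 ± 0.18 (SE, limma adjusted p = 0.0198) for Rpl3. For Rpl18 it was 1.19 ± 0.27 (limma adjusted p = 0.0103), but 2 clusters, the number a gene needed in at least 50% of libraries to be tested, were reached in 3 of 8 NT and 8 of 8 R6/2 libraries, so it could be tested only because it was high in R6/2 and its call supports nothing.

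Of the 70 genes, 56 had a positive and 14 a negative difference, with a median of 0.19 where all genes had 0.03, and 14 had an unadjusted p under 0.05, beside 21.9% of all genes. The Rpl18 and Rpl3 calls did not hold within males (limma adjusted p = 0.416 and 0.277) or females (0.0661 and 0.259), or without the 5 libraries of high intronic share (0.690 and 0.455). Those libraries moved with the result. They had 83 to 116 intronic clusters on ribosomal protein genes, against 27 to 59 in NT and 40 to 58 in the other 3 R6/2 libraries. Their part in the result was not tested.

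The same split ran through the enriched clusters of TDP-43 striatum. In the 5 libraries 4.32% to 13.1% of the exonic clusters of ribosomal protein genes were enriched (median 7.61%), against 16.5% to 22.0% in the other 3 R6/2 libraries, all male. NT libraries ran from 6.44% to 25.1% (median 20.3%), which overlaps the 5 libraries. Other genes moved with them, with 5.37% to 12.8% in the 5 libraries and 12.7% to 19.0% in those 3. None of the 5 ribosomal protein genes with enough enriched clusters passed the limma test, beside 14% of all genes, and none had an unadjusted p under 0.05, beside 26.6%. With counts this low only 5 genes could be tested.

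For the gene-level log2 IP over input in TDP-43 striatum, fitted after each library was centred on its median, 5 of 66 ribosomal protein genes passed, beside 2.53% of all genes. Of these, 4 fell, beside 2.19% of all genes, and 1 rose, beside 0.337%. Rpl37, a zinc-finger protein of the large subunit, had deposited values of 1.87 to 4.34 in NT (median 3.50) and 1.03 to 2.91 in R6/2 (median 1.53), a centred difference of -1.57 ± 0.29 (SE, limma adjusted p = 0.00576). The R6/2 libraries were mostly below the NT libraries, and the ranges overlapped.

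Rpl21, another large-subunit protein, went from 0.21 to 2.17 (median 1.40) in NT to -0.23 to 1.40 (median 0.16) in R6/2, a difference of -1.01 ± 0.22 (limma adjusted p = 0.0188). Rpl38 went from 1.53 to 2.60 (median 2.36) to 0.66 to 2.32 (median 1.28), -0.85 ± 0.19 (adjusted p = 0.0192), and Rpl8 from 2.67 to 4.50 (median 4.04) to 2.24 to 3.57 (median 3.20), -0.86 ± 0.22 (adjusted p = 0.0357). For each of the 3 genes the groups overlapped. Rps25, a small-subunit protein required for some internal ribosome entry sites, was the one that rose, from -1.05 to 1.14 (median 0.07) to 0.55 to 1.66 (median 1.08), 0.99 ± 0.24 (adjusted p = 0.0357).

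Of the 66 genes, 39 differences were negative and 27 positive, with a median of -0.19 where all genes had -0.04, and 12 had an unadjusted p under 0.05, beside 18.3% of all genes. None of the 5 calls held without centring or without the 5 libraries of high intronic share, where Rpl37 had -1.81 (limma adjusted p = 0.264). Males alone gave 1 call (Rpl37, -1.87, adjusted p = 0.0432) and females alone 1 (Rpl21, -1.50, adjusted p = 0.0288). The Rpl8 call was lost on leaving out any one of 10 of the 16 libraries (NT males 2 and 3, R6/2 male 4, NT females 1, 2 and 4 and the 4 R6/2 females, adjusted p 0.0546 to 0.0785) and the Rps25 call on any one of 7 (NT males 2 and 3, R6/2 male 4, NT females 1 and 2 and R6/2 females 2 and 3, 0.0562 to 0.0781). At single sites, the Rps3 window had 4.38 to 7.21 in NT (median 5.76) and 3.73 to 7.39 in R6/2 (median 5.53), ranges that overlap almost fully, and the Rpl4 window had medians of 3.82 and 4.53.

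The other 3 sets gave no call for ribosomal protein genes. In TDP-43 cortex 0 of 73 passed limma for listed clusters beside 2.56% of all genes, 0 of 15 for enriched clusters beside 7.37%, and 0 of 66 for log2 IP over input beside 0.863%. At an unadjusted p under 0.05 limma gave 7, 0 and 8 of them, beside 16%, 22.2% and 13.1% of all genes. The median differences of listed clusters and of log2 IP over input were 0.09 and -0.08, where all genes had 0.02 and 0.01. The share of enriched clusters of ribosomal protein genes ran from 21.1% to 45.5% in NT and from 13.1% to 33.9% in R6/2, overlapping, with intronic shares of 19.7% to 29.7% and 23.9% to 35.9% beside it.

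In m6A striatum 0 of 75 genes passed limma for listed clusters beside 3.65% of all genes, 0 of 13 for enriched clusters beside 9.44%, and 0 of 82 for log2 IP over input beside 0.0569%. At an unadjusted p under 0.05 there were 6, 1 and 9, beside 16.4%, 22.7% and 9.86% of all genes. In m6A cortex limma gave 0 of 75 beside 2.53%, 0 of 9 beside 6.09%, and 0 of 82 beside 0.0955%, with 7, 0 and 17 at an unadjusted p under 0.05, beside 15.7%, 20.9% and 10.4%. The signs of log2 IP over input leaned one way in both regions without a call, with 55 positive and 27 negative differences in striatum (median 0.06, all genes 0.03) and 60 and 22 in cortex (median 0.11, all genes 0.01). The share of signs over all genes was not taken. Here and in the other comparisons the genes share their libraries, so counts of signs are not independent. The share of enriched clusters was 7.11% to 10.8% in NT and 7.47% to 11.5% in R6/2 striatum, and 5.57% to 11.8% and 5.21% to 13.3% in cortex, with full overlap. The Rpl7l1 window had medians of 2.09 and 2.01 in striatum and 2.18 and 2.11 in cortex.

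**Figure D5:**
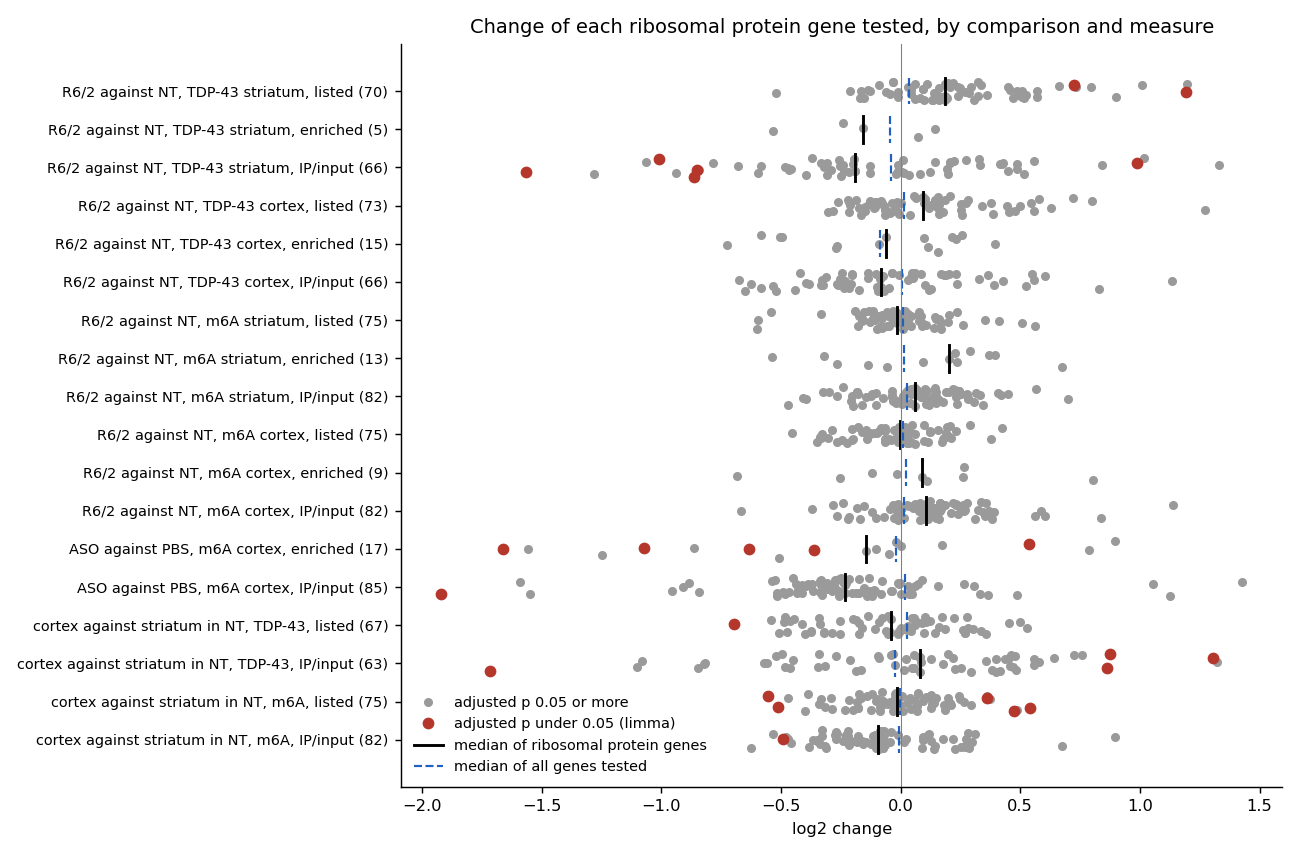
Log2 change of each ribosomal protein gene tested, by comparison and measure (number of genes in brackets), with genes at a limma adjusted p under 0.05 in red, the median of ribosomal protein genes as a solid bar and that of all genes tested as a dashed bar. For m6A IP over input after the ASO most points lie below 0, with the solid bar left of the dashed one.

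With the TDP-43 ASO the m6A IP over input of most ribosomal protein genes lay below its PBS value, although a single gene passed the test. The libraries of a treatment share their intervals, so the spread between them leaves out that of calling the clusters. All limma SE and p values and all counts of groups without overlap for the ASO have this limit. Tardbp, the gene targeted for knockdown, had 16.8 to 22.6 normalized enriched m6A clusters with PBS and 7.47 to 9.45 with the ASO, -1.12 ± 0.14 (SE, limma adjusted p = 0.00352), a number of clusters and not a transcript level. The median log2 IP over input of the ribosomal protein genes was -0.93, -0.85 and -0.63 in the PBS libraries and -1.13, -1.11 and -1.04 in the ASO libraries, which do not overlap. In other genes it was 0.71, 0.69 and 0.85 with PBS and 0.65, 0.67 and 0.67 with the ASO, which do not overlap either. Enriched exonic clusters on ribosomal protein genes numbered 80, 79 and 120 in PBS 1 to 3 and 51, 65 and 68 with the ASO. On other genes they numbered 88586, 86909 and 95462 with PBS and 79687, 81612 and 80567 with the ASO, so PBS 3 was the highest in both.

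Of 85 ribosomal protein genes tested for log2 IP over input, 68 had a negative and 17 a positive difference, with a median of -0.23. All 21565 genes tested, which include noncoding genes, had a median of 0.02. Groups did not overlap for 44 of them, 39 lower and 5 higher, beside 20.6% of all genes (13.7% lower and 6.84% higher), and 20 had an unadjusted p under 0.05, beside 13% of all genes. Only Rps16, a small-subunit protein whose tail contacts the P-site tRNA, passed limma, beside 0.195% of all genes (0.121% lower and 0.0742% higher). Its values were -1.39, -1.20 and -1.18 with PBS and -3.47, -3.27 and -3.02 with the ASO, a difference of -1.92 ± 0.16 (SE, adjusted p = 0.0386). The call was lost on leaving out any one of the 6 libraries (adjusted p 0.127 to 0.218), which leaves 2 against 3.

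Of 17 ribosomal protein genes with enough enriched clusters 5 passed, beside 30.8% of all genes, 1 higher (13.6%) and 4 lower (17.2%). These counts come from intervals shared within a treatment, so the test does not measure the full variation between replicates. Groups did not overlap for 7, beside 50.5%, 1 higher (24.7%) and 6 lower (25.8%). Rpl7l1 had 8, 9 and 9 clusters with PBS and 6 in each ASO library (-0.36 ± 0.06 on the normalized log2 scale, limma adjusted p = 0.00945), but with enriched clusters at a p of 1e-10 the difference turned to 0.50 (adjusted p = 0.527). Rpl22, an RNA-binding large-subunit protein, had 3, 4 and 4 with PBS and 5 in each ASO library (0.54 ± 0.12, limma adjusted p = 0.0215), a call lost without any one of the 3 ASO libraries (adjusted p 0.0598 to 0.0657).

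The other 3 genes reached the filter, 2 clusters in at least 50% of libraries, in all 3 PBS and 0 ASO libraries, so they could be tested only because they were high with PBS and their calls support nothing. Rpl36al had 2, 3 and 4 clusters with PBS and 1 in each ASO library, Rpl12, at the base of the ribosomal stalk, 2 in each and 1 in each, and Rpl3 3 in each and 0, 1 and 1. All 5 genes rest on a few clusters.

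Because most intervals differed between the treatments, PBS and ASO clusters that overlap by at least 50% were also compared, an alternative chosen after the data were seen. Of 753 exonic PBS clusters of ribosomal protein genes 536 had a match, and 467 of these (87.1%) had the lower mean log2 IP over input with the ASO, against 77359 of 131099 (59.0%) in other genes. The median difference was -0.29, against -0.06. The medians were -0.89 with PBS and -1.17 with the ASO in ribosomal protein genes, and 0.87 and 0.79 in other genes. Most matched clusters of ribosomal protein genes thus lay below input already with PBS, where a lower value is not a loss of enrichment. The share that was lower was 91.0% in coding sequence (59.8% in other genes), 86.5% in 5′ UTRs (69.5%) and 71.0% in 3′ UTRs (56.1%).

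Cortex was set against striatum in NT mice to see whether the profile of these genes was regional. For TDP-43, 1 of 67 genes passed for listed clusters, beside 11.6% of all genes. Rpl41 had 3 to 4 clusters in striatum (median 4) and 2 to 4 in cortex (median 2), -0.70 ± 0.20 (SE, limma adjusted p = 0.0235), and the call was lost with the replicate number as a block (adjusted p = 0.0646). For log2 IP over input 4 of 63 passed, beside 6.44%. Without centring, which moved the median of all genes to 0.54, the number was 27, 26 of them higher in cortex.

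Rpl36al had 1.64 to 3.14 in cortex (median 2.58) and -0.45 to 1.67 in striatum (median 0.38), a centred difference of 1.31 ± 0.23 (SE, limma adjusted p = 0.00166). Rpl22 had 2.42 to 3.31 and 1.02 to 2.15 (0.86 ± 0.18, adjusted p = 0.00610). The deposited values of Rpl22 did not overlap between the regions, and those of Rpl36al did. Rpl12 was lower in cortex, with -3.31 to -0.32 against -1.74 to 0.80 (-1.72 ± 0.40, adjusted p = 0.0136).

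For m6A, 5 of 75 genes passed for listed clusters, beside 10.6% of all genes. Rps21 had 6 to 12 clusters in striatum (median 10) and 3 to 9 in cortex (median 6.5), -0.55 ± 0.15 (SE, limma adjusted p = 0.0134). Rpl41 (0.54, adjusted p = 0.0324), Rps15a (0.36, adjusted p = 0.0366) and Rpl22 (0.47, adjusted p = 0.0370) were higher in cortex, and these 3 calls were lost on leaving out any one of 8, 11 and 9 of the 16 libraries (adjusted p 0.0504 to 0.0834), striatum male 2 and cortex male 2 among them for each gene. For log2 IP over input 1 of 82 passed, beside 0.238%. Rps26, at the mRNA exit channel, had -0.82 to -0.23 in striatum and -1.37 to -0.96 in cortex, which do not overlap, a centred difference of -0.49 ± 0.09 (adjusted p = 0.0260) that was lost on leaving out any one of 6 libraries (striatum males 2 and 3 and female 3, cortex females 1, 2 and 4, 0.0512 to 0.0654) and with the replicate number as a block (adjusted p = 0.0916).

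Clusters on intronic snoRNAs of these genes came mainly from TDP-43. The 58 snoRNA genes within 30 host members drew 53 to 82 listed TDP-43 clusters in NT striatum and 42 to 60 in NT cortex, and 2 to 14 listed m6A clusters. Of the TDP-43 ones, 27 to 49 in NT striatum and 22 to 31 in NT cortex fell in an annotated noncoding exon of the host and so count as exonic in the densities and shares above. Enrichment was counted only for the clusters outside such host exons. Of those, 0 to 2 TDP-43 clusters in NT striatum and 0 to 3 in NT cortex were enriched, and none in m6A. Intronic clusters of all members numbered 27 to 59 in NT striatum, 20 to 45 in NT cortex and 6 to 16 in m6A of the R6/2 and NT mice.

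Related gene lists were taken for comparison. The 16 translation factors and other 5′ TOP transcripts had in m6A of NT striatum a median of 3.12 listed clusters per kb, of which 14.3% were enriched, and a median log2 IP over input of -0.79. Their share in TDP-43 was 41.7% in NT striatum and 58.5% in NT cortex. Of 78 mitochondrial ribosomal protein genes, encoded in the nucleus for the separate mitochondrial ribosome, 2 passed limma after the ASO for m6A IP over input, 1 in each direction, beside 0.195% of all genes, with a median of 0.01. The TOP transcripts had 0 calls there and a median of -0.07, and the 15 ribosome biogenesis genes 0 and -0.12. For enriched clusters after the ASO, 20 of 54 mitochondrial genes passed (5 higher and 15 lower), 3 of 5 TOP transcripts (Eef1d, Eef2 and Eif3h, all lower) and 2 of 10 biogenesis genes (Ncl and Ubtf, both lower), beside 30.8% of all genes. In R6/2 striatum the TDP-43 calls among the TOP transcripts were Eef2, lower, 1 of 16 for listed clusters beside 6.95%, and Eef1a1, higher, 1 of 8 for enriched clusters beside 14%. For IP over input they were Mrpl23, 1 of 62 mitochondrial genes, and Ubtf, 1 of 15 biogenesis genes, both lower, beside 2.53%.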

How the data were processed

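Members and gene lists were chosen with earlier results of these data known. The authors made the eCLIP libraries with a company's kits and had the vendor analyse the data: TDP-43 was immunoprecipitated from UV-crosslinked tissue and m6A from poly(A)-selected RNA. Per the labels and the methods, clusters were called with CLIPper on mm10 and scored against the input of the same sample, and tool versions and annotation are not given in the sources used here. Each deposited list gives intervals, a deposited −log10 p of IP against input (at most 400) and the authors' log2 fold of IP over input. Read numbers are not used here.

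The midpoint and strand of a cluster set its GENCODE vM21 gene on GRCm38, whose 21 of 21 chromosomes hold all cluster ends. Exonic clusters were counted per gene, all (listed) or those with p of 0.001 or less and a log2 fold above 0 (enriched), scaled by median-ratio size factors and put on a log2 scale after adding 0.5, for genes with 2 or more in at least 50% of libraries. The gene-level log2 IP over input is the median over listed exonic clusters, centred per library, for genes with a cluster in every library. limma 3.58.1 (lmFit, eBayes with a trend, two-sided, Benjamini-Hochberg over all genes tested) was used, with a term for sex in the R6/2 and regional comparisons, and calls are genes with an adjusted p under 0.05. Genes of every annotated type were tested, not protein-coding genes alone. Error values after ± are limma's SE. The plan assumed that lists could hold read counts. They do not, so no count model was run. On simulated data with 2-fold changes for the m6A striatum comparison, 62% were recovered for listed clusters (16073 genes), 62.5% for enriched clusters (9215) and 80.5% for IP over input (15808). For listed and enriched clusters the changed genes were drawn only from genes with several clusters per library on average. Their noise was Poisson alone, so these shares do not apply to genes with few clusters or with more spread between libraries.

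Genes named are members called in a comparison, the densest and least dense members per assay and region, and paralogues. Results for some genes are not reported here. Alternatives were another size factor, 4 added, other thresholds, no filter, introns, other exon definitions, each sex alone, a replicate block and each library left out. Chosen after the data were seen were members restricted to those listed in at least 50% of libraries, matched ASO clusters and leaving out the TDP-43 striatum libraries with 30% or more in introns. Replicate numbers were not taken to pair the samples, since in no comparison did every pair of samples of 1 number correlate above 0.1. Python 3.11.15, NumPy 2.4.6, pandas 2.3.3 and R 4.3.3 were used.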

Additional observations from a re-analysis of the deposited data

Results flagged for a closer look

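Of 118 groups of 4 libraries examined, 10 held a library far from the other 3, of which 9 are given here. Chance alone gives about 1 in 20 groups. In TDP-43 striatum, 1 NT male had a median log2 IP over input of 0.37 over ribosomal protein genes, with 0.90 to 0.98 in the other NT males. In the same set, 1 NT female had 2 listed Rpl18 clusters where the others had 1.

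Gene-level log2 IP over input stood apart in 4 groups of TDP-43 striatum. Rpl8 had 2.75 in 1 R6/2 male (others 3.45 to 3.57) and 3.61 in 1 NT female (4.44 to 4.50). Rpl38 had 1.67 in 1 NT male (2.44 to 2.50) and Rpl36al 0.216 in 1 NT female (1.62 to 1.67). The Rpl8 and Rpl38 values belong to genes called between R6/2 and NT.

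Listed m6A clusters stood apart by small numbers in the others. In NT striatum Rps15a had 11 in 1 female (9), and Rps21 had 9 in 1 male (10) and 6 in 1 female (11 to 12).

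The R6/2 effect and the difference between regions in NT mice were also compared between the sexes. Of 918 gene-level interaction tests of both kinds 0 passed with limma, with a lowest adjusted p of 0.298.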

How the results depend on the processing

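Calls on ribosomal protein genes rested on few clusters and changed with several settings, and the cause was not tested. In R6/2 TDP-43 striatum, the listed calls went from 2 to 0 in either sex alone, and to 0 once the 5 libraries rich in intronic clusters were left out. Enriched calls went from 0 to 1 with no filter. The 5 IP over input calls became 0 without centring, 2 with 3 or more clusters per gene, 1 in males, 1 in females and 0 without those libraries. In TDP-43 cortex, listed calls went from 0 to 1 with 4 added or introns included, and enriched calls to 1 with no filter or a p of 1e-10. In m6A cortex, listed calls went from 0 to 1 with library totals, no filter or introns. After the ASO, the 5 enriched calls became 9 with no filter, 0 at the thresholds of the study (log2 fold above 3) and 2 at a p of 1e-10, where the Rpl7l1 difference turned to 0.50 (adjusted p = 0.527), and the IP over input call became 0 with gene means and 4 with 3 or more clusters. Between regions, the TDP-43 listed call became 2 with no filter, the 4 IP over input calls became 27 without centring and 7 with gene means, and the m6A one became 2 without centring.

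No comparison had a correlation over 0.1 in every pair of samples of 1 replicate number, so the numbers were not taken to pair them, although all 8 pairs were weakly positive in both m6A regional measures and in IP over input of TDP-43 striatum. As a replicate block they changed m6A cortex listed calls from 0 to 1, the ASO enriched calls from 5 to 2 and IP over input calls from 1 to 0, and between regions the TDP-43 listed and the m6A IP over input calls from 1 to 0 each. In the m6A regional comparison 16 of 16 samples correlated best with their own number (r of 0.05 to 0.07), a hint from the data and not the design.

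Leaving out 1 library at a time gave 2 to 3 listed and 3 to 6 IP over input calls in TDP-43 striatum (3 without NT male 2 or 3, NT female 1 or 2, R6/2 male 4 or R6/2 female 2 or 3) and 0 to 1 listed calls in TDP-43 cortex (1 without R6/2 male 3, NT female 1 or 3 or R6/2 female 3). In m6A it gave 0 to 1 enriched calls in striatum (1 without NT male 2 or NT female 2) and 0 to 1 listed calls in cortex (1 without R6/2 female 3 or 4). The ASO gave 1 to 4 enriched calls (1 without ASO 2, 2 without PBS 1, PBS 2 or ASO 3) and 0 for IP over input without any one library. Between regions, TDP-43 gave 1 listed and 3 to 5 IP over input calls and m6A 2 to 5 listed (2 without striatum male 2 or striatum female 4) and 0 to 2 IP over input calls.

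Density ratios moved with the definition of exons. With any overlap they were 1.66 (PBS), 1.71 (ASO), 0.973 and 1.13 (TDP-43 striatum NT and R6/2) and 0.956 (cortex R6/2). With basic protein-coding transcripts they were 2.04 and 2.11 (PBS and ASO), 1.68 and 1.68 (m6A striatum), 1.61 and 1.59 (m6A cortex), 0.827 and 0.865 (TDP-43 striatum, the latter on the other side of 1) and 0.789 (cortex R6/2). With members restricted to those listed in at least 50% of libraries they were 1.68 (PBS), 1.74 (ASO), 0.970 (TDP-43 striatum NT) and 0.933 (cortex R6/2). The difference in enriched share, in percentage points, kept its sign in every setting. At the thresholds of the study it was -4.37 (PBS), -4.36 (ASO), -6.71 and -5.97 (m6A striatum) and -6.40 and -7.48 (m6A cortex). At a p of 1e-10 it was -21.8, -23.3, -30.7, -29.9, -28.0 and -29.1 in the same order, and 0.821 in TDP-43 striatum NT. With basic transcripts it was 11.4, 6.72, 16.7 and 14.3 in the 4 TDP-43 groups. Lists hold no reads, so weakly covered genes without clusters could not be told from unmarked ones.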
